A study of Callithrix jacchus with 4 samples.

Results

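The genes described here encode heat shock proteins and their DNAJ cochaperones, the molecular chaperones that help other proteins to fold. They are the 68 rows, of the 35205 in the deposited count table, whose symbol begins with HSPA, HSPB or DNAJA, DNAJB or DNAJC and a number, begins with HSP90, or is HSPD1, HSPE1 or HSPH1. Rows were found for every stem of this rule other than HSPE1, which was not analysed here. The RNA came from brain of the common marmoset, a small New World monkey, taken at postnatal day 5; 2 libraries were wild-type and 2 came from animals carrying an FMR1 mutation made with CRISPR/Cas9. The study's design describes the samples as forebrain, with cortex, striatum and hippocampus in it, while the label of each library says only brain. The labels give neither the mutation nor the sex or parentage of an animal, nor do they tie a library to 1 animal of its own. The p-values therefore cover only the spread among these 4 samples, which may be technical. In bulk tissue, fewer cells of a type and less RNA per cell cannot be told apart.

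Chaperones of the HSP70 family bind unfolded stretches of a protein and release them in a cycle driven by ATP. DNAJ proteins bring clients to an HSP70 and start its ATP hydrolysis, and HSP110 proteins exchange its nucleotide so that the client is let go. HSP90 takes over partly folded clients such as kinases and steroid receptors, small heat shock proteins hold aggregating proteins without ATP, and each compartment of the cell has members of its own. In neurons, HSP70 and its cochaperones also strip the clathrin coat from synaptic vesicles and keep the proteins of vesicle fusion folded.

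Libraries held 12331639 to 13455702 counts, and levels are given as CPM, the usual measure of a gene's share of its library's counts, after scaling each library by the TMM method. The hindbrain genes HOXA2, HOXB3 and HOXC4 had at most 1 count in any library. Wild-type replicate 1 stood apart in genes of the thalamus: TCF7L2, LHX9, GBX2 and the 3 HOX genes summed to 109 CPM there and to 10.2 to 12.7 CPM in the other libraries. FMR1 itself was counted 1144 and 966 times in the wild-type and 1062 and 1603 times in the mutant libraries, which overlap, and its log2 fold change of 0.28 did not pass (adjusted p = 0.445).

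Of the chaperone transcripts 1 rose in mutant brain: DNAJA1, a cytosolic cochaperone of HSP70, was 1.44-fold higher in the mutant libraries. Of the 68 genes, 61 had enough counts to be tested. By edgeR's quasi-likelihood test at an adjusted p of 0.05, 1 of the 61 was higher and 0 were lower, where 0.661% of all 16956 genes tested were higher and 1.57% lower, 2.23% in all. At an unadjusted p under 0.05, 4 were higher (DNAJA1, HSPH1, HSPA8 and HSP90AB1, all cytosolic) and 2 lower (HSPA12A and DNAJC3), against 5.64% and 7.75% of all genes. By DESeq2 and by limma-voom 1 was higher and 0 lower as well. The median log2 fold change, mutant over wild-type throughout, was 0.0054 over the 61 and -0.0040 over all genes tested, with 32 of the 61 above 0 and 29 below. In CPM the groups did not overlap for 15 members with the mutant libraries higher and for 15 with them lower, and they overlapped for 31. Among all genes 21.4% and 21.8% were apart in these directions, 43.1% in all.

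**Figure D1:**
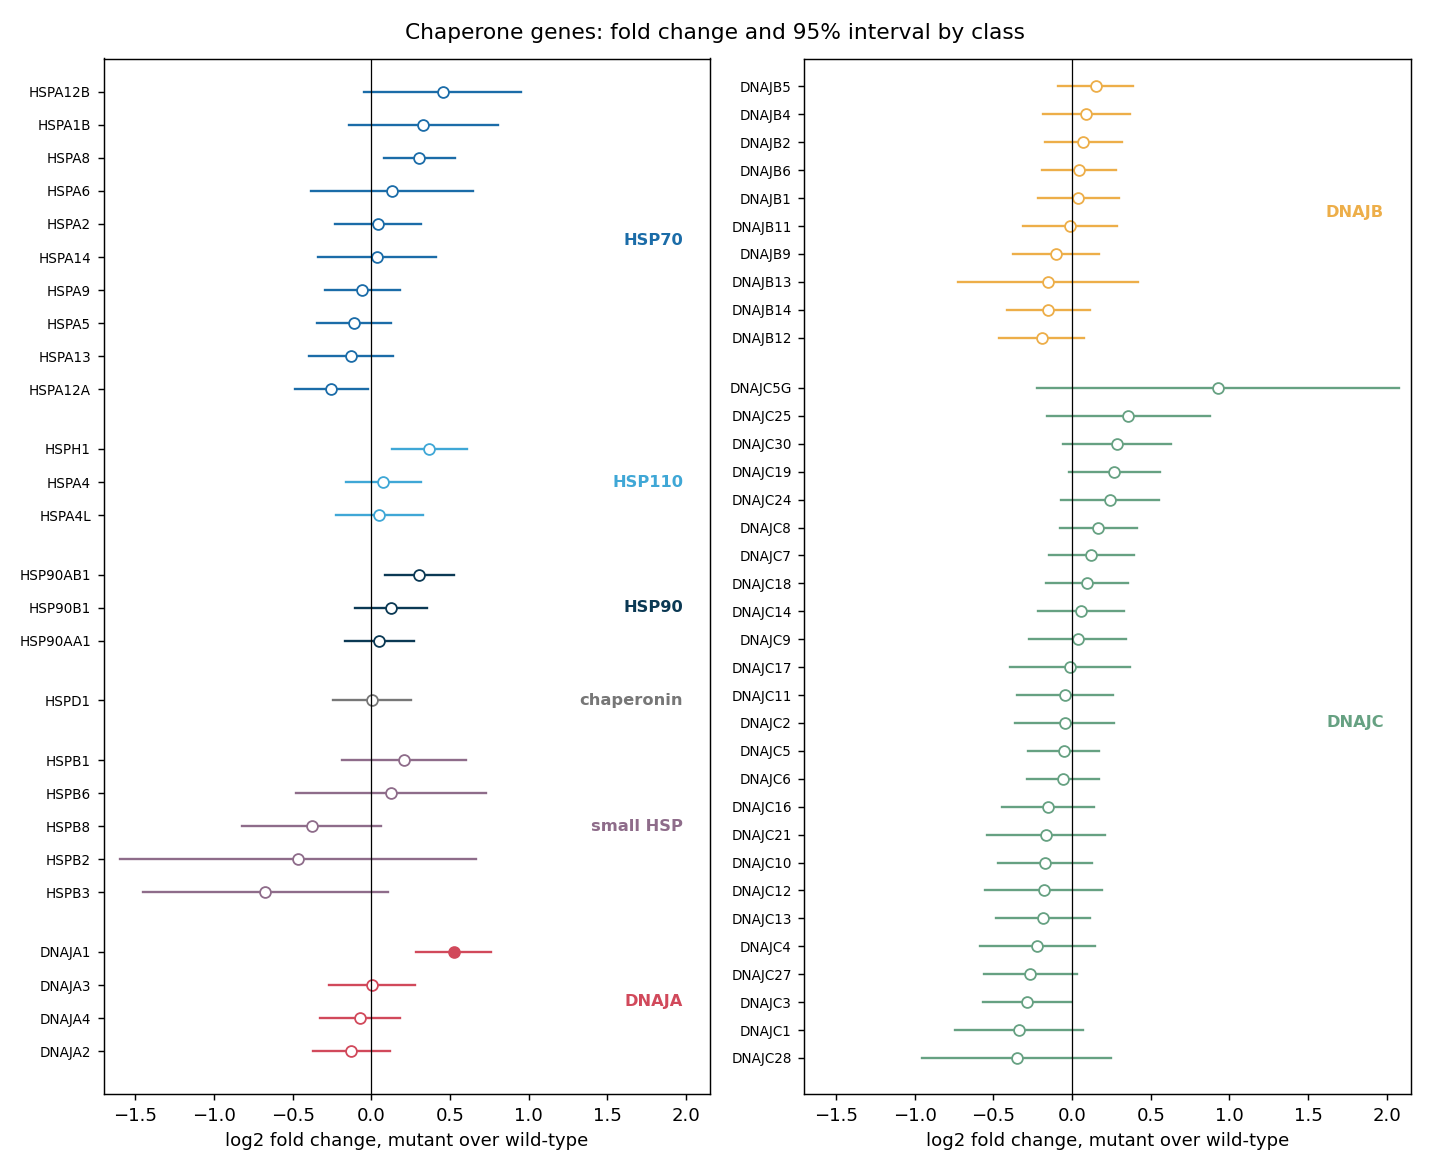
Log2 fold change (x axis, mutant over wild-type) of each of the 61 tested chaperone genes, in rows grouped and coloured by class. Circles are estimates, filled where the adjusted p is under 0.05, and lines are 95% intervals; DNAJA1, at 0.52, is the only filled circle, and intervals are widest for DNAJC5G, HSPB2 and HSPB3.

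For 58 of the 61 the 95% interval lay within a 2-fold change in either direction, as it did for 76.6% of all genes tested. For 36 it lay within 0.5 on the log2 scale, beside 41.5% of all genes. DNAJA1, DNAJC5G and HSPB3 had estimates of more than 0.5 in size, 3 of 61 beside 13.7% of all genes. The median SE was 0.14 over the members and 0.18 over all genes tested.

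DNAJA1 is the main cytosolic J-domain protein of its class, which holds unfolded proteins and presents them to HSC70. It measured 313 and 366 CPM in wild-type replicates 1 and 2 and 524 and 452 CPM in mutant replicates 1 and 2. Both mutant libraries (488 ± 51.1 CPM, SD, n = 2) were above both wild-type libraries (339.5 ± 37.0 CPM, SD, n = 2), and the lower mutant library was 1.24 times the higher wild-type library. The log2 fold change was 0.52 (SE 0.12, 95% interval 0.28 to 0.76, adjusted p = 0.00926), which ranked 160 among all genes tested by p. The call was lost when wild-type replicate 1 was left out (0.42, adjusted p = 0.178) and when mutant replicate 1 was left out (0.41, adjusted p = 0.143), and it held without either of the other libraries. Its class mates did not pass. DNAJA2, the other general cytosolic member, was 116 and 118 CPM in wild-type and 108 and 107 CPM in mutant libraries, with mutant libraries lower by a small step (-0.13, 95% interval -0.37 to 0.12). DNAJA4 was 82.7 and 81.4 against 77.4 and 78.5 CPM (-0.07). The number of DNAJA1 counts for each DNAJA2 count was 2.90 ± 0.284 (SD, n = 2) in wild-type and 4.55 ± 0.463 (SD, n = 2) in mutant libraries, a ratio chosen after the values were seen and given without a test.

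HSPA8 encodes HSC70, the constitutive cytosolic HSP70, which uncoats clathrin vesicles and drives chaperone-mediated autophagy. It measured 1171 and 1321 CPM in wild-type and 1627 and 1453 CPM in mutant libraries. The groups did not overlap. HSPA8 differed by 0.31 (SE 0.11, 95% interval 0.08 to 0.53), which did not pass (adjusted p = 0.172). HSPH1, an HSP110 protein that exchanges the nucleotide of HSP70, showed the same order of libraries by group. It was 241 and 294 CPM in wild-type and 345 and 346 CPM in mutant libraries, with a log2 fold change of 0.37 (SE 0.12, 95% interval 0.13 to 0.61, adjusted p = 0.0981). The mutant libraries lay close together and the wild-type libraries further apart. Without wild-type replicate 2 HSPH1 passed (0.52, adjusted p = 0.0393), and without wild-type replicate 1 its log2 fold change was 0.23 (adjusted p = 0.634). The other HSP110 proteins overlapped between groups: HSPA4 was 162 and 152 against 172 and 158 CPM (0.08, 95% interval -0.16 to 0.31). HSPA4L, the member first described in testis, was 45.2 and 48.0 against 47.4 and 49.0 CPM (0.05).

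**Figure D2:**
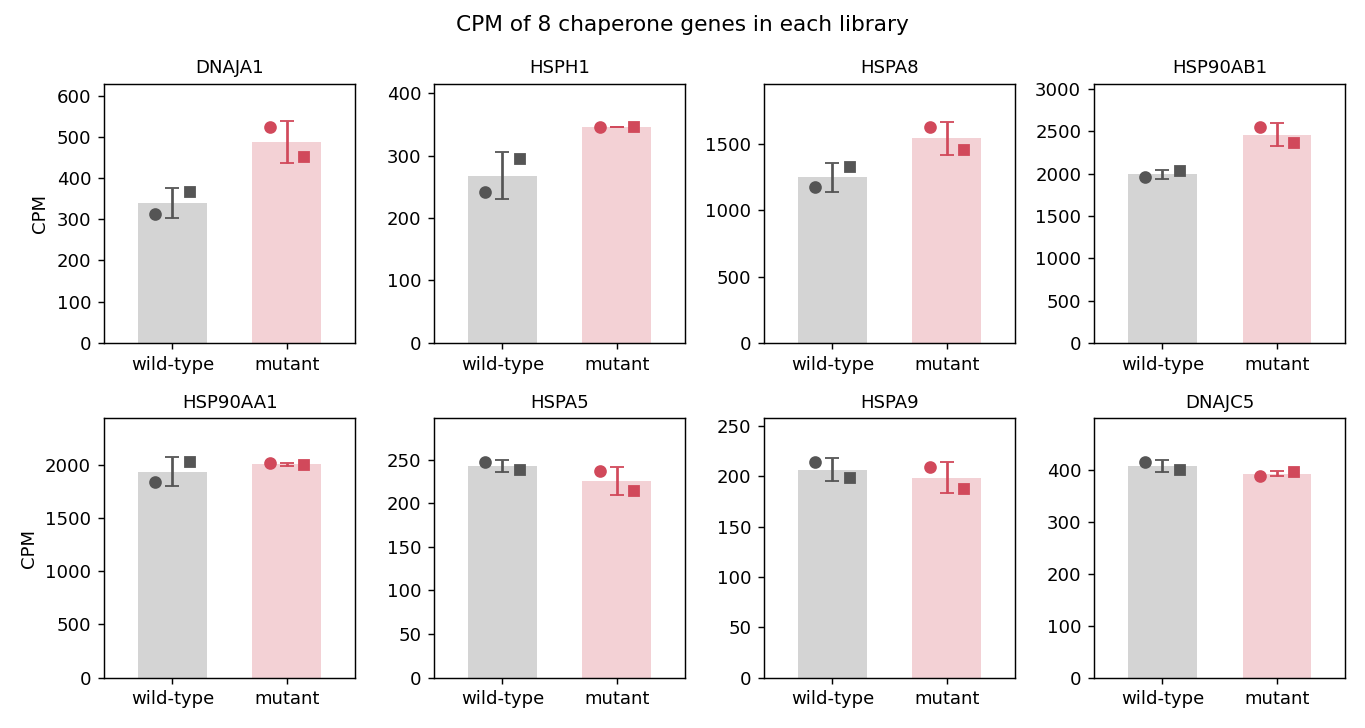
CPM (y axis, starting at 0, a scale of its own in each panel) of 8 chaperone genes in wild-type and mutant libraries. Circles are replicate 1, squares replicate 2, bars the mean and error bars the SD over 2 libraries; the upper row holds the genes with the smallest p (DNAJA1, HSPH1, HSPA8, HSP90AB1), in which all mutant points lie above all wild-type points, and the lower row HSP90AA1, HSPA5, HSPA9 and DNAJC5, whose estimates lie between -0.11 and 0.05.

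Neither cytosolic HSP90 gene passed the test. HSP90AB1, the constitutive beta form, was 1956 and 2028 CPM in wild-type and 2555 and 2363 CPM in mutant libraries. Both mutant libraries were higher, at a log2 fold change of 0.30 (SE 0.11, 95% interval 0.09 to 0.52) that did not pass (adjusted p = 0.154). HSP90AA1, the alpha form that stress induces, was 1836 and 2028 against 2011 and 1994 CPM. Its groups overlapped, and the log2 fold change was 0.05 (95% interval -0.17 to 0.27, adjusted p = 0.903). There were 1.07 and 1.00 HSP90AB1 counts for each HSP90AA1 count in wild-type and 1.27 and 1.19 in mutant libraries. This pair was chosen after the values were seen, and the difference between the genes was not tested. HSP90B1, or GRP94, the form of the endoplasmic reticulum, was 251 and 249.5 against 277 and 269 CPM (0.13, 95% interval -0.10 to 0.36, adjusted p = 0.697). DNAJA1, HSPA8, HSPA1B, HSPD1 and the HSP90 genes belong to families with near-identical copies or processed pseudogenes in primates. The labels do not say how reads shared among such copies were counted, so their levels are uncertain to that extent.

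HSPA1B, DNAJB1, HSPA6 and HSPB1 are textbook targets of heat shock factor 1, as are HSPH1 and DNAJA1 above; they are grouped here by that background and not by a list, and these 4 did not pass. No row had the symbol HSPA1A, the close relative of HSPA1B. HSPA1B, an inducible HSP70, measured 8.83 and 10.01 CPM in wild-type and 14.6 and 9.13 CPM in mutant libraries. Mutant replicate 1 stood above the other 3 libraries, and the log2 fold change of 0.33 had a 95% interval of -0.14 to 0.80 (adjusted p = 0.591). DNAJB1, or HSP40, the inducible partner of HSP70 in refolding and disaggregation, was 74.7 and 86.0 against 85.6 and 79.7 CPM (0.04, 95% interval -0.22 to 0.30). HSPA6, a strictly inducible HSP70, was 6.64 and 7.16 against 6.72 and 8.38 CPM (0.13), and the small heat shock protein HSPB1, or HSP27, 14.2 and 20.9 against 22.4 and 18.0 CPM (0.21). In each of these 4 genes the groups overlapped. The grouping leaves out other known targets of this factor, which did not move as one. Among them HSP90AA1 was at 0.05, HSPD1 at 0.0054, BAG3 at -0.14, CRYAB at -0.44 and CHORDC1 at 0.40. FKBP4 was at 0.93, STIP1 at 0.19 and AHSA1 at 0.17, and HSPA8 and HSP90AB1 above were at 0.31 and 0.30. These examples were chosen after the values were seen and are not a full list. DNAJA1 counts per DNAJB1 count were 4.20 and 4.25 in wild-type and 6.12 and 5.67 in mutant libraries.

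Other HSP70 genes went in different directions. HSPA12A, a distant HSP70 of neurons, was 216 and 213 CPM in wild-type and 175 and 184 CPM in mutant libraries. Both mutant libraries were lower, at -0.25 (SE 0.11, 95% interval -0.49 to -0.02, adjusted p = 0.314). Its relative HSPA12B, an endothelial gene, was 8.15 and 5.78 against 9.16 and 9.94 CPM (0.45, 95% interval -0.04 to 0.95, adjusted p = 0.434). HSPA2, best known for its role in sperm formation and also made in brain, was 96.7 and 71.2 against 87.3 and 85.8 CPM, with both mutant values between the wild-type values (0.04).

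The cytosolic DNAJB genes did not pass. DNAJB5 was 185 and 210 against 223 and 215 CPM (0.15, 95% interval -0.09 to 0.39, adjusted p = 0.638). DNAJB6, which blocks the aggregation of polyglutamine and amyloid peptides, was 198 and 180 against 201 and 188 CPM (0.04). DNAJB2, a neuronal form that sorts ubiquitylated clients, was 136 and 165 against 163 and 154 CPM (0.07), and DNAJB4 45.1 and 46.3 against 47.9 and 49.6 CPM (0.09). All 5 tested cytosolic DNAJB genes, DNAJB1 included, had estimates between 0.04 and 0.15, and none passed the test (lowest adjusted p 0.638). DNAJB13, a protein of the ciliary radial spoke, was 5.21 and 8.39 against 7.10 and 5.12 CPM (-0.15).

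In the endoplasmic reticulum, 10 of the 14 members had lower and 4 higher estimates in the mutant libraries, with a median of -0.12, and 0 passed. Of all genes tested, 49.3% had higher estimates. HSPA5, or BiP, the HSP70 of this compartment and the sensor that holds the unfolded protein response off, was 248 and 238 CPM in wild-type and 237 and 214 CPM in mutant libraries. The higher mutant library was only just below the lower wild-type library, and the log2 fold change was -0.11 (95% interval -0.34 to 0.13, adjusted p = 0.754). DNAJC3, a BiP cochaperone that also restrains the kinase PERK, was 54.6 and 50.6 against 39.9 and 46.5 CPM, with both mutant libraries lower (-0.29, SE 0.14, adjusted p = 0.363). DNAJC1, a membrane partner of BiP, was 14.3 and 14.1 against 11.8 and 10.7 CPM (-0.34, 95% interval -0.75 to 0.07). DNAJB12 and DNAJB14 sit in the membrane with the J domain facing the cytosol. They measured 61.0 and 57.4 against 52.1 and 51.5 CPM (-0.19) and 79.7 and 85.2 against 67.6 and 80.8 CPM (-0.15). DNAJC10, a disulfide reductase, was 42.1 and 39.9 against 32.0 and 40.7 CPM (-0.17), with mutant replicate 1 alone low. DNAJC16 was at -0.15, HSPA13 at -0.13 and DNAJB9, which unfolded protein stress induces, at -0.10. DNAJB11, which binds secreted clients for BiP, was at -0.01. The higher estimates were of DNAJC25 (0.36), HSP90B1 (0.13), DNAJC18 (0.10) and DNAJC14 (0.06). Without wild-type replicate 1 the split was 8 lower and 6 higher, with a median of -0.06, and without mutant replicate 1 the median was -0.06 as well.

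**Figure D3:**
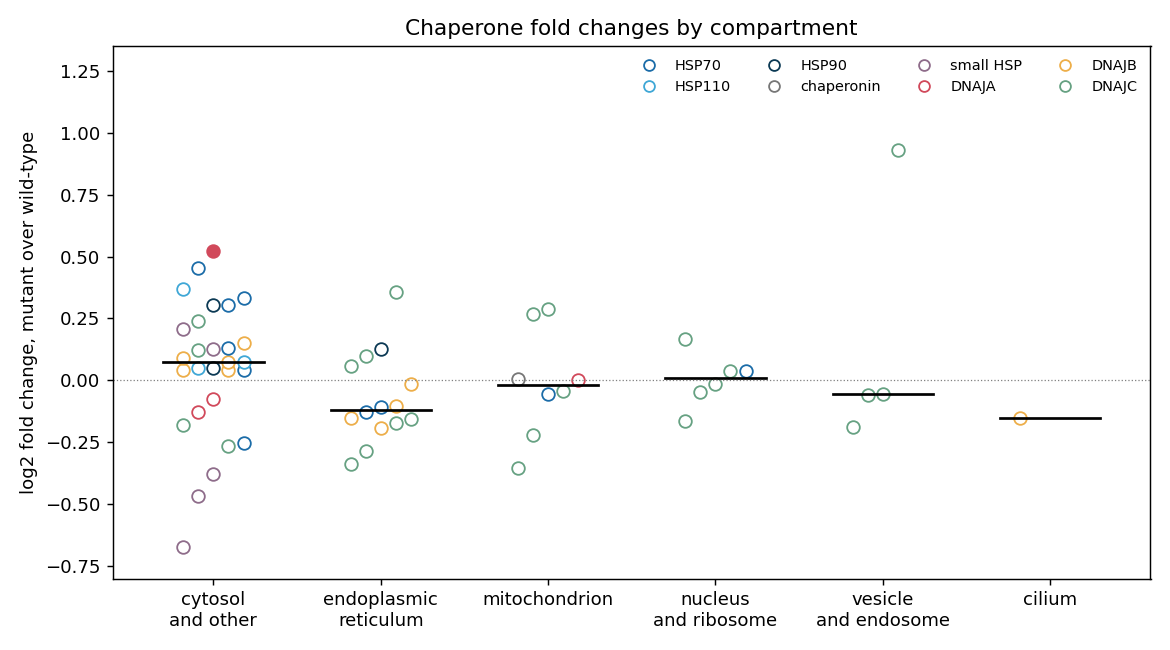
Log2 fold change (y axis, mutant over wild-type) of the 61 tested genes by compartment (x axis), coloured by class, filled where the adjusted p is under 0.05, with a black line at the median of each compartment. The median is 0.07 over 28 cytosolic and other genes, -0.12 over 14 of the endoplasmic reticulum and -0.02 over 8 of the mitochondrion, and within each of these 3 the genes spread more widely than the medians differ.

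Of the 28 genes of the cytosol or not placed elsewhere, 20 had higher and 8 lower estimates, with a median of 0.07, where 49.3% of all genes tested were higher. Leaving out 1 library brought the 20 down to between 15 and 19, with 15 without mutant replicate 1, where the median was 0.02. The difference between the compartments was not tested.

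Of 8 tested mitochondrial chaperones 0 passed, and 4 had estimates above and 4 below 0. HSPA9, or mortalin, the matrix HSP70 that also pulls proteins through the import channel, was 214 and 198 CPM in wild-type and 209 and 188 CPM in mutant libraries (-0.06, 95% interval -0.29 to 0.18). HSPD1, the chaperonin HSP60, was 144 and 137 against 155 and 127 CPM, with the wild-type values between the mutant values (0.0054, 95% interval -0.24 to 0.25). DNAJA3, the partner of HSPA9, was 50.5 and 49.8 against 52.2 and 48.4 CPM (0.0031). DNAJC19, a J-domain protein of the inner membrane, was 34.2 and 35.7 against 42.2 and 42.0 CPM. Its libraries lay close together within each group, with both mutant libraries higher, at 0.27 (SE 0.14, 95% interval -0.02 to 0.56, adjusted p = 0.417). DNAJC30, which associates with the ATP synthase, was 18.5 and 19.1 against 22.6 and 23.2 CPM (0.29, SE 0.17, adjusted p = 0.480). DNAJC11 was at -0.04, DNAJC4 at -0.22 and DNAJC28 at -0.35, the last with mutant replicate 1 at 3.59 CPM and the other libraries at 5.79 to 6.02 CPM.

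The DNAJC proteins of synaptic vesicles and endosomes did not pass either. DNAJC5, or cysteine string protein, keeps the SNARE protein SNAP25 folded on synaptic vesicles. It was 416 and 399.8 CPM in wild-type and 389.5 and 397 CPM in mutant libraries (-0.05, 95% interval -0.28 to 0.17, adjusted p = 0.903). DNAJC6, the neuronal auxilin that recruits HSC70 to clathrin coats, was 271 and 260.0 against 247 and 264 CPM (-0.06, 95% interval -0.29 to 0.17). DNAJC13, an endosomal sorting protein, was 56.7 and 46.2 against 39.6 and 50.8 CPM (-0.19), with the mutant libraries on both sides of wild-type replicate 2. DNAJC5G had the largest estimate of all members, 0.93, from 7, 12, 20 and 18 counts in wild-type replicates 1 and 2 and mutant replicates 1 and 2, and its 95% interval ran from -0.22 to 2.08.

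Members of the nucleus and the ribosome had estimates on both sides of 0. DNAJC8, a splicing protein, was 106 and 102 against 122 and 111 CPM (0.17, 95% interval -0.08 to 0.41). DNAJC2 and HSPA14, which together form the complex that receives nascent chains at the ribosome, were at -0.05 and 0.04. DNAJC21, which acts in the maturation of the large ribosomal subunit, was at -0.16, the splicing protein DNAJC17 at -0.01 and the histone chaperone DNAJC9 at 0.04. Among the remaining cytosolic DNAJC genes, DNAJC27, which carries a small GTPase domain, was 46.8 and 49.3 against 34.7 and 45.1 CPM, lower in both mutant libraries (-0.27, SE 0.14, adjusted p = 0.440). Without mutant replicate 1 its log2 fold change was -0.09. DNAJC24, an enzyme partner in the diphthamide modification of elongation factor eEF2, was 27.2 and 32.6 against 37.0 and 33.5 CPM (0.24, adjusted p = 0.534). DNAJC12, which binds the hydroxylases of monoamine synthesis, was at -0.18, and DNAJC7, which links HSP70 with HSP90, at 0.12.

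Small heat shock proteins had few counts. In CPM 3 of the 5 tested were lower in both mutant libraries, as were 21.8% of all genes tested, and 0 passed. HSPB8, which works with BAG3 in the autophagy of aggregates, was 12.7 and 11.5 CPM in wild-type and 8.47 and 10.09 CPM in mutant libraries (-0.38, SE 0.22, adjusted p = 0.471). HSPB3, known from muscle and motor neurons, was counted 44, 39, 28 and 26 times, wild-type libraries first (-0.67, 95% interval -1.45 to 0.10, adjusted p = 0.465). HSPB2 was counted 17, 15, 15 and 9 times (-0.47, 95% interval -1.60 to 0.67). HSPB2 lies next to the gene of the small heat shock protein CRYAB in the RefSeq annotation of assembly calJac240_pri, with 0 genes between them. HSPB6, a vascular and muscle form, was 5.96 and 4.32 against 6.87 and 4.38 CPM (0.13).

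Summed over all 68 genes, the share of a library's counts taken by chaperone transcripts was 0.971% and 1.01% in wild-type and 1.12% and 1.07% in mutant replicates 1 and 2. The summed level of the wild-type libraries was 9926 ± 299 CPM (SD, n = 2) and that of the mutant libraries 10938 ± 382 CPM (SD, n = 2), a ratio of 1.10, and without DNAJA1 the ratio was 1.09. In CPM the DNAJA class had a ratio of 1.23, HSP110 of 1.19, HSP90 of 1.13 and HSP70 of 1.11, and in these classes both mutant libraries were above both wild-type libraries. The DNAJB class (1.02), the DNAJC class (0.983), HSPD1 (1.00) and the small heat shock proteins (0.969) overlapped between groups. A sum follows its largest terms. In the total these were HSP90AB1 (mean 1992 CPM in wild-type and 2459 CPM in mutant libraries), HSP90AA1 (1932 and 2002 CPM) and HSPA8 (1246 and 1540 CPM). Without DNAJA1 the other 3 genes of its class summed to 249 and 249 CPM in the wild-type and to 237 and 234 CPM in the mutant libraries, a ratio of 0.945, and without HSPA8 the ratio of the HSP70 class was 0.932; in both sums the mutant libraries were then the lower. The ratio was 1.05 for HSP110 without HSPH1. It was 1.04 for HSP90 without HSP90AB1, and there the groups overlapped. These sums without the most abundant member of a class were added after the values were seen. In wild-type libraries the 3 HSP90 genes made 42.1% of the chaperone total.

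**Figure D4:**
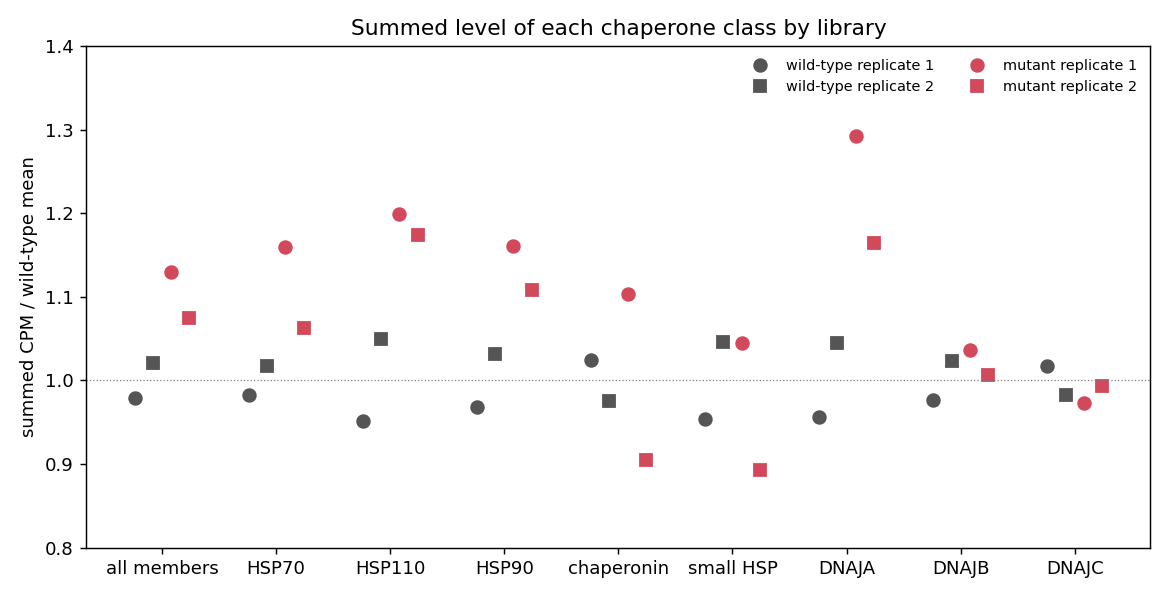
Summed CPM of each chaperone class in each library, divided by the wild-type mean of that class (y axis, from 0.8 to 1.4; grey, wild-type; red, mutant; circles, replicate 1; squares, replicate 2). The mutant points lie above the wild-type points for all members together and for the HSP70, HSP110, HSP90 and DNAJA classes, and within or across them for the other classes.

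Of 88 further genes of protein folding and its control that were tested, 0 passed, beside 2.23% of all genes. At an unadjusted p under 0.05, 8 were higher and 0 lower, beside 5.64% and 7.75% of all genes. DESeq2 called 0 as well and limma-voom called 1, FKBP4. For the directions given below, 49.3% of all genes tested had estimates above 0. Among 14 subunits of the cytosolic chaperonin and of prefoldin, which fold actin and tubulin, 12 had higher and 2 lower estimates, with a median of 0.14. The prefoldin subunit PFDN5 was 83.1 and 80.7 CPM in wild-type and 117 and 101 CPM in mutant libraries (0.41, SE 0.12, adjusted p = 0.0732), and the chaperonin subunit CCT2 was 164 and 151 against 201 and 186 CPM (0.30, adjusted p = 0.211). Of 28 partners of HSP70 and HSP90, 19 had higher and 9 lower estimates (median 0.07). FKBP4, an HSP90 cochaperone of steroid receptors, was 3.92 and 8.22 against 11.8 and 11.3 CPM (0.93, SE 0.27, adjusted p = 0.0751). CHORDC1, another HSP90 cochaperone, was 24.7 and 40.5 against 43.4 and 42.3 CPM (0.40, adjusted p = 0.363). In both, and in HSPH1 and DNAJA1, wild-type replicate 1 was the lowest of the 4 libraries. All 4 tested genes of the heat shock factor list, HSF1, HSF2, HSF4 and HSBP1, had estimates above 0. HSBP1, at 0.05, is a binding protein of HSF1 and not a factor itself. HSF2 was at 0.07, with groups that overlapped. HSF1, the master regulator of the heat shock response, was 28.7 and 42.2 against 46.3 and 41.2 CPM, so that its groups overlapped (0.30, adjusted p = 0.425), and HSF4, counted at most 39 times in a library, was at 1.13 (SE 0.45, adjusted p = 0.230). Without wild-type replicate 2 the genes that passed were HSF1, FKBP4 and CHORDC1, and without wild-type replicate 1 HSF4 alone did. Without wild-type replicate 1 the estimates of FKBP4, CHORDC1 and HSF1 were 0.49, 0.08 and 0.05.

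**Figure D5:**
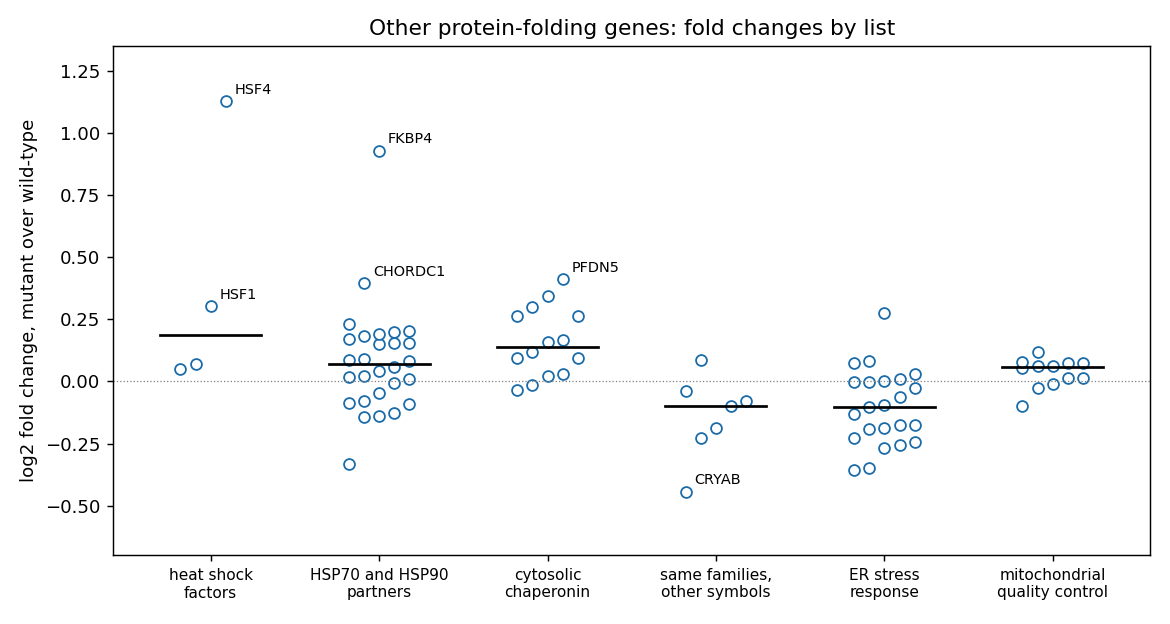
Log2 fold change (y axis, mutant over wild-type) of 88 other genes of protein folding in 6 lists (x axis), with a black line at the median of each list; open circles did not pass the test. The medians run from -0.10 for the endoplasmic reticulum stress response to 0.19 for the heat shock factor list, which includes HSBP1. HSF4 and FKBP4 have the highest estimates.

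The genes of the endoplasmic reticulum stress response, 23 of them tested, had 17 lower and 6 higher estimates (median -0.10), where 49.3% of all genes tested were higher. SIL1, the nucleotide exchange factor of BiP, was 12.1 and 12.3 CPM in wild-type and 9.54 and 9.50 CPM in mutant libraries (-0.36, adjusted p = 0.497). PDIA4, a disulfide isomerase, was 40.5 and 44.7 against 36.0 and 35.5 CPM (-0.25, adjusted p = 0.456). Chaperones of the same families that carry other symbols had 6 of 7 estimates below 0. HYOU1, the HSP110 protein of the endoplasmic reticulum, was 104 and 109 against 90.2 and 91.3 CPM (-0.23, adjusted p = 0.421). CRYAB was 7.54 and 14.4 against 7.41 and 8.68 CPM (-0.44, adjusted p = 0.492), and without wild-type replicate 2, the highest library, its log2 fold change was 0.09. In the mitochondrial list YME1L1 (0.12) and LONP1 (-0.10), both proteases of the mitochondrion, had the smallest p of 12 genes, with adjusted p = 0.770 and 0.802.

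Markers of several cell types differed between the same libraries, and their part in the chaperone values was not tested. All 10 markers of mature oligodendrocytes fell, from 3652 and 3572 CPM summed in wild-type to 1393 and 1341 CPM in mutant libraries. All 6 genes listed as markers of newborn neurons had estimates above 0, and 3 of them (DCX, CD24 and NEUROD6) rose. The 6 summed to 3693 and 3157 CPM in wild-type and 4440 and 4371 CPM in mutant libraries. Most of this sum was STMN2, at 2560 and 2232 against 3059 and 2902 CPM, which did not pass (adjusted p = 0.141). All 10 immediate early genes had estimates below 0 and 6 fell, with sums of 530 and 787 CPM in wild-type and 318 CPM in each mutant library. Summed astrocyte markers were 4486 and 4317 against 3150 and 3490 CPM (1 of 8 fell), microglial markers 160 and 169 against 125 and 85.5 CPM (3 of 8 fell), and neuronal markers 4943 and 5067 against 4497 and 4413 CPM (3 of 9 fell). Of all genes tested, 1.57% fell and 0.661% rose. The microglial markers did not move as one: C1QA was at -0.10, C1QB at -0.16 and C1QC at 0.49, with groups that overlapped. Of the 9 neuronal markers 8 had estimates below 0, and those that fell were GAD2, NEFL and NEFM. SLC17A7 was at 0.04, SYT1 at -0.05 and RBFOX3 at -0.08. Markers of vessels, among them those of the endothelium where HSPA12B is made, were 276 and 282 against 243 and 253 CPM summed (0 of 8 passed). Smooth muscle markers summed to between 10.01 and 16.9 CPM, with groups that overlapped, and ependymal markers to between 17.8 and 24.4 CPM.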

How the data were processed

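Poly(A) RNA was made into strand-keeping libraries, per the labels' protocols. Trimmomatic 0.38 and STAR 2.7.10a are named in the submitters' processing notes; no source used here gives the counting tool, the genome build, the annotation or the strand setting. The authors deposited raw counts per gene for 35205 genes, with no normalization. Members were taken by symbol, and classes and compartments were assigned by hand. The members and lists were chosen with earlier results of these data known. Testing used edgeR 4.0.16 (R 4.3.3) on those counts: filterByExpr with a minimum count of 10 kept 16956 genes, TMM scaling was used, and mutant was compared with wild-type by the robust quasi-likelihood test, with Benjamini-Hochberg adjustment over all genes tested. Every adjusted p without another tool's name is from this test. An SE is the absolute log2 fold change over the square root of F, CPM uses the same scaling, and errors are SDs over 2 libraries. The test was checked on simulated counts. It recovered 27.3% of log2 changes of 0.5, 73.1% of changes of 1.0 and 92.2% of changes of 2.0. Most changes of 0.5 were thus missed. A gene that did not pass may still have changed by that much where its 95% interval reaches 0.5 in size. For 36 of the 61 tested members the interval lay within 0.5. Values per library were printed for members past the threshold and, in each class, for the 3 members with the smallest p and up to 3 with the highest mean CPM; other members are given besides. Of the other lists, members past the threshold and the 2 with the smallest p are named. Genes mentioned beyond this rule were chosen after their values were seen. Depth of 12331639 to 13455702 counts limits the precision of low genes most. Alternatives were RLE and upper quartile scaling, DESeq2 1.42.0 on all rows, limma-voom (limma 3.58.1), a fit without robust estimation, other filters, the replicate block, an adjusted p of 0.1 and leaving out each library.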

Additional observations from a re-analysis of the deposited data

How the results depend on the processing

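DNAJA1 was the only chaperone gene called under RLE or upper quartile scaling, by DESeq2 or limma-voom, with non-robust estimation, with all genes kept, with genes of a mean CPM of 1 or more, and with the replicate block (adjusted p 0.00081 to 0.0126 in these). With 1 library left out, on the same genes, the number of chaperone genes called ran from 0 to 2, and it was 2 at an adjusted p of 0.1 (DNAJA1 and HSPH1). It was 0 without wild-type replicate 1 or mutant replicate 1. The chaperone median ran from -0.02 to 0.03 over these fits. For the other folding genes the number called was 1 by limma-voom and with the replicate block (FKBP4 in both), 2 without a low-count filter (FKBP4 and PFDN5) or at an adjusted p of 0.1, and 0 to 3 with 1 library left out. Over all genes the number called was 378 as reported, 244 by DESeq2, 633 without a low-count filter, 624 at an adjusted p of 0.1, and 163 to 562 with 1 library left out. Same-numbered libraries did not deviate together (r = 0.03 across genes, 2 pairs), so the numbers were not taken as pairing; with the replicate block 493 genes were called, all 378 among them. DNAJA1 kept its sign in all 12 alternative fits. The cause of these shifts was not tested. A fit that leaves out 1 library has 1 library in a group, which is then assumed to vary like the other group. Counting depth limits the small heat shock proteins and DNAJC5G most.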

Other observations

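The 7 chaperone genes with too few counts for the test were HSPA1L, HSPB7, DNAJB7, DNAJB8, DNAJC5B, DNAJC15 and DNAJC22. HSPA1L, an HSP70 of the testis, had 3 and 14 counts in the wild-type and 7 and 4 counts in the mutant libraries, so wild-type replicate 2 held the most. DNAJC15, a relative of DNAJC19 in the mitochondrial inner membrane, was counted 1, 2, 4 and 1 times, and DNAJC5B, a relative of cysteine string protein, 4, 2, 3 and 6 times. DNAJC22 was counted 1, 0, 6 and 0 times, with all but 1 of its counts in mutant replicate 1. DNAJB7, DNAJB8 and HSPB7, a heart form, each had 1 count over the 4 libraries, all in the wild-type group.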
